A study of Mus musculus with 6 samples.

Results

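Slc2a1, Slc2a4 and Insr encode 2 glucose transporters and the insulin receptor, and their expression was measured in mouse soleus, a postural hindlimb muscle, after 1 day of reloading. The probes were chosen by their gene symbol in the platform annotation, which gave 3 probes, 1 for each gene, out of 203 named genes and 223 probes on the array. All 6 arrays came from a single group of C57Bl/6 mice titled wild type (wt), replicates 1 to 6, each with 3 micrograms of total RNA from cryosections. Age, sex and any period of unloading before the reloading are not stated in the labels, and the titles carry an abbreviation, HUR, that the labels do not expand. No unloaded or untouched muscle was analysed here, so the values describe levels and their spread between samples and not a response to reloading. The labels do not say that the samples came from 6 animals, and the spread between them may be technical.

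GLUT1, the product of Slc2a1, sits mainly in the cell surface and carries a basal flow of glucose into many cell types, among them endothelium. GLUT4, the product of Slc2a4, is the main glucose transporter of skeletal muscle, heart and fat, and it moves from vesicles inside the cell to the surface when insulin binds its receptor or when the muscle contracts. Insr encodes that receptor, a tyrosine kinase that starts the signal. Transcript levels say nothing of where the transporters sit in the cell.

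The arrays differed in overall brightness, with summed intensities from 13.8 on replicate 6 to 165.3 on replicate 1, an 11.9-fold difference, and were not on a common scale. Replicates 1 and 6 therefore stood apart, and the ranges of the transporters between samples are also given without them. Some deposited values were below 0, and for each array the distance of its lowest value from 0 was taken as a noise bound. The bound was 0.0144 on replicate 1 and lay between 0.0011 and 0.0028 on the others, and it limits negative noise only. Of the 223 probes 58.3% exceeded it on all 6 arrays and 78.5% exceeded 0 on all 6. For comparison between arrays, each intensity was divided by the median of the probes above 0 on all arrays, and log2 values on this scale are called median-centred. Signals of different probes depend on the probe as well as on the transcript, so a brighter probe does not show a more abundant transcript. In RNA from a whole muscle, fewer cells of a type and less RNA per cell cannot be told apart.

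Slc2a4 gave a clear signal on every array, Slc2a1 a moderate one, and Insr a signal close to background. Slc2a1 and Slc2a4 exceeded the noise bound on 6 of 6 arrays and Insr on 4 of 6. Slc2a4 was 15.0 to 40.8 times the bound and Slc2a1 4.36 to 6.14 times. Insr lay between 0.643 and 3.21 times the bound. By signal, Slc2a4 ranked 34th to 52nd of the 223 probes, Slc2a1 87th to 116th and Insr 123rd to 175th, so the 3 ranges of rank did not overlap.

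For Slc2a4, the insulin-responsive transporter, the deposited intensities on replicates 1 to 6 were 0.2327, 0.0316, 0.0782, 0.0571, 0.0497 and 0.0223. Replicate 1 was far above the others in these units, as it was in summed intensity. Relative to the array median the same 6 samples stood at 3.60, 2.11, 5.08, 3.50, 2.94 and 2.25 times the median probe. On that scale replicate 3 was the highest and replicate 2 the lowest, replicate 6 lay just above the lowest, and replicates 1 and 4 were nearly equal. The mean median-centred log2 level was 1.63 ± 0.47 (SD, n = 6), a range of 2.41-fold. Replicate 3 set the top of that range: without it the log2 range fell from 1.27 to 0.77. Replicate 3 was also highest after quantile normalization, with a range of 2.02-fold, whereas replicate 1 was highest in deposited units (10.4-fold) and after scaling to the 28S ribosomal RNA probe (4.92-fold). Without replicates 1 and 6 the ranges were 2.41-fold relative to the array median, 2.02-fold after quantile normalization, 2.47-fold in deposited units and 3.43-fold relative to 28S. Replicate 2 was the lowest of the remaining samples on each of these scales.

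For Slc2a1, the basal transporter, the deposited intensities on replicates 1 to 6 were 0.0647, 0.0110, 0.0138, 0.0086, 0.0122 and 0.0054. Relative to the array median these were 1.00, 0.733, 0.896, 0.528, 0.722 and 0.545. Replicates 1 and 3 were the highest and replicates 4 and 6 the lowest, with replicates 2 and 5 almost level between them. On replicate 1 the Slc2a1 probe was itself the median probe. The mean median-centred log2 level was -0.48 ± 0.37 (SD, n = 6) and the range 1.90-fold. The range was 1.84-fold after quantile normalization, 5.63-fold relative to 28S and 12.0-fold in deposited units, and replicate 1 was highest on all of these scales. The lowest array was replicate 4 under median centring and quantile normalization but replicate 6 relative to 28S and in deposited units. Without replicates 1 and 6 the range of Slc2a1 was between 1.48-fold and 1.70-fold on these 4 scales, so its wide ranges in deposited units and relative to 28S rested on those arrays.

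For Insr the deposited intensities on replicates 1 to 6 were 0.0105, 0.0050, 0.0066, 0.0045, 0.0018 and 0.0020. Those of replicates 1 and 5 were under the noise bounds of their arrays, 0.0144 and 0.0028, which equal 0.223 and 0.166 times the array median. Their levels could not be told from background, and noise could also place them above these figures. On the arrays above the bound Insr stood at 0.333, 0.429, 0.276 and 0.202 times the array median in replicates 2, 3, 4 and 6, a range of 2.12-fold. Replicate 3 was the highest of these and replicate 6 the lowest. Deposited values were given to 4 decimals, and the last decimal alone amounted to 5.56% of the lowest Insr value. The sample with the highest Insr value changed with the scale: replicate 3 under median centring and quantile normalization, replicate 1 in deposited units, where it is under the bound, and replicate 4 after scaling to 28S.

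**Figure D1:**
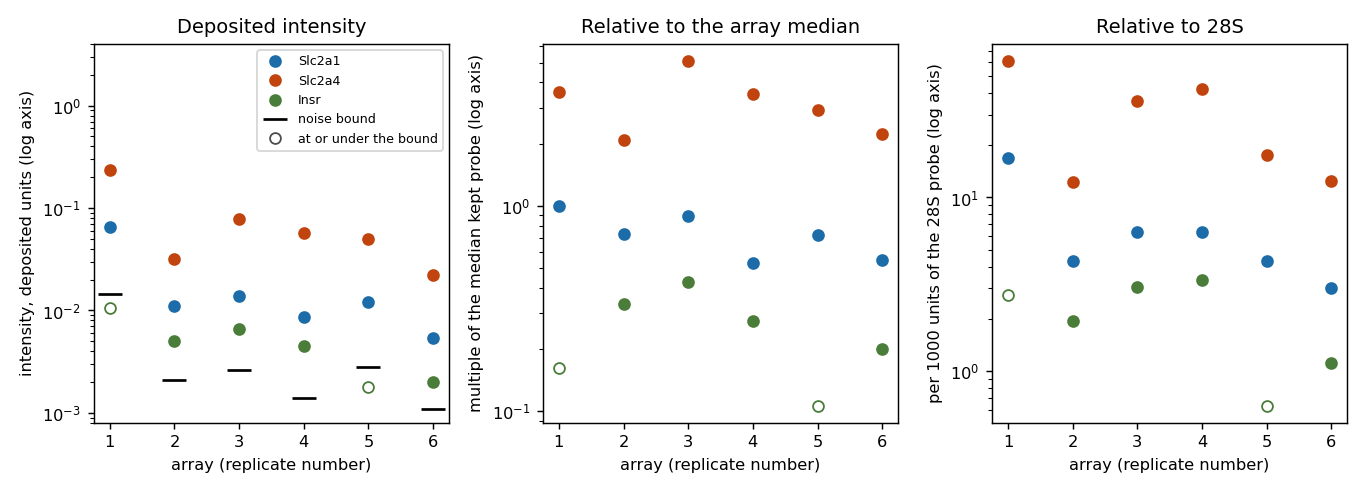
Values of Slc2a1, Slc2a4 and Insr on each of the 6 arrays (x axis, replicate number; the order has no meaning), in deposited units, relative to the median kept probe of the array and per 1000 units of the 28S probe, all on log axes. Open points are at or under the noise bound (black bars); replicate 1 leads for Slc2a4 in deposited units and per 28S, and replicate 3 leads relative to the array median, at 5.08.

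Compared with other genes on the array, the transporters varied less between samples than the median gene on the median-centred scale. The median SD over the 162 named genes above 0 on all arrays was 0.64 log2 units. Of these genes 123 exceeded the noise bound on all arrays, and no median SD was taken over them alone. Slc2a1 had an SD of 0.37, with 24 of the 162 genes below it, and Slc2a4 an SD of 0.47, with 39 below it. For Insr the side of the median depended on its 2 values under the bound. Its SD was 0.73 with these values as deposited, 0.50 with them set to the bound, and 0.46 over the 4 arrays above the bound, where the median gene had 0.61. These are descriptions of one set of arrays.

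The ratio of 2 probes on the same array does not depend on how bright the array was, so the 3 ratios among these genes can be set side by side between samples. The Slc2a4 probe gave 2.87 to 6.64 times the signal of the Slc2a1 probe. On replicates 1 to 6 the ratio was 3.60, 2.87, 5.67, 6.64, 4.07 and 4.13. Replicates 3 and 4 were the highest and replicates 1 and 2 the lowest, with replicates 5 and 6 nearly equal between them. The mean log2 ratio was 2.11 ± 0.44 (SD, n = 6), and the range between samples was 2.31-fold. Relative to the array median, Slc2a4 was at its highest in replicate 3 and Slc2a1 at its lowest in replicate 4. Relative to 28S, replicate 4 was not low for either gene. Per 1000 units of 28S it held 6.37 for Slc2a1 and 42.3 for Slc2a4, each next below replicate 1.

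A part of this spread exceeded background noise as large as the bound. Error in proportion to the signal is not covered by the bound, so differences beyond it may still be technical. Noise as large as the bound, of either sign and in both probes, would allow a ratio between 2.25 and 3.79 on replicate 2, between 4.61 and 7.21 on replicate 3 and between 5.57 and 8.12 on replicate 4. The ranges of replicates 2 and 4 were apart by a factor of 1.47. Of the 15 pairs of arrays 4 had ranges that did not overlap: replicate 4 against replicates 1, 2 and 6, and replicate 2 against replicate 3. In the other pairs the difference in ratio was within the allowance for noise. Replicates 1 and 6, the brightest and dimmest arrays, did not set the range, which was 2.31-fold without them as well. Without replicate 2 it was 1.85-fold and without replicate 4 it was 1.97-fold.

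The ratios to Insr were less firm, because the receptor signal was low. The ratio of Slc2a4 to Insr on replicates 2, 3, 4 and 6 was 6.32, 11.8, 12.7 and 11.2, so that replicate 2 was again the lowest. On replicates 1 and 5, where Insr was under its bound, noise as large as the bound in both probes allows ratios down to 8.77 and 10.2, with no upper limit. The ratio of Slc2a1 to Insr was 2.20, 2.09, 1.91 and 2.70 on replicates 2, 3, 4 and 6, and on replicates 1 and 5 the same noise allows ratios down to 2.02 and 2.04. On the 4 arrays above the bound the ratio of Slc2a1 to Insr thus ranged 1.41-fold and that of Slc2a4 to Insr 2.01-fold. With the same allowance for noise in both probes, 0 of the 15 pairs of arrays stood apart in either ratio to Insr. A difference between samples in the receptor gene relative to the transporters was therefore not detectable at this signal.

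**Figure D2:**
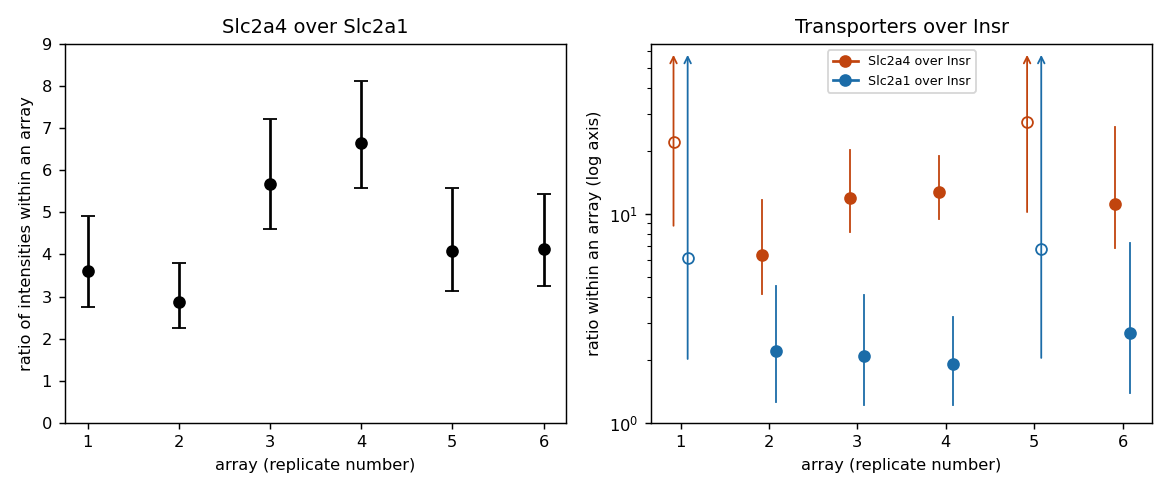
Ratio of probe intensities within each array (x axis, replicate number), Slc2a4 over Slc2a1 on the left (linear axis from 0) and each transporter over Insr on the right (log axis). Bars span the ratios that noise as large as the bound permits, open points with arrows mark arrays on which Insr was under its bound and no upper limit exists, and on the left the bars of replicates 2 and 4 do not overlap.

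Whether the 3 genes rose and fell together over the 6 samples was tested by correlation for 3 pairs. On the median-centred scale 0 of 3 pairs passed, by r or by rho, and 0 did so before adjustment. The permutation test was exact and two-sided and went through each of the 720 ways to pair the 6 samples. For Slc2a4 and Slc2a1 Pearson's r was 0.48, with an exact p of 0.364 (0.921 after adjustment), while Spearman's rho was 0.43, with an exact p of 0.419 (0.919 after adjustment). The most extreme Slc2a4 levels were those of replicates 2 and 3, and r was 0.48 without them too. For Slc2a4 and Insr r was 0.26, with an exact p of 0.614 (0.921 after adjustment), while rho was 0.14, with an exact p of 0.803 (0.919 after adjustment). It was 0.099 without replicates 2 and 3, and -0.36 without replicate 3 alone. For Slc2a1 and Insr r was 0.0083, with an exact p of 0.982 both before and after adjustment, while rho was 0.086, with an exact p of 0.919 before and after. Without replicates 1 and 4 that r was 0.47. In the correlations with Insr the values of replicates 1 and 5 were used as deposited although they lie under the bound. With these set to the bound r was 0.42 for Slc2a4 and Insr and 0.25 for Slc2a1 and Insr, each with an exact permutation p of 0.618 after adjustment. With so few samples, p-values above the threshold leave a relation between the genes possible.

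The relation between the 2 transporters depended on the scale. In deposited units r was 0.93, with an exact p of 0.0125 (0.0375 after adjustment), while rho was 0.83, with an exact p of 0.0583 (0.175 after adjustment). That scale retains the brightness of each array, which all probes share, and the part of brightness in the correlation was not tested. With replicates 1 and 6, the extreme samples, left out r was 0.29, and with replicate 1 alone left out it was 0.76. After scaling to 28S r was 0.89, with an exact p of 0.00556 (0.0167 after adjustment), while rho was 0.94, with an exact p of 0.0167 (0.05 after adjustment). There r was 0.98 without replicates 1 and 2. On that scale all genes share the 28S value of their array, and the part of this shared divisor in the correlation was not tested. The 28S probe was also the 1 probe whose values were rounded to hundredths on all arrays, so how it was measured is uncertain. After quantile normalization r was 0.53, with an exact p of 0.278 (0.517 after adjustment).

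How constant the ratio of 2 genes stays from sample to sample is not affected by array scale, and it was taken as the SD of their log2 ratio over the 6 arrays. It is smaller for genes that each vary little, so a small value does not by itself show that 2 genes rose and fell together. Both transporters varied less than the median gene, and of the 162 genes compared 123 exceeded the noise bound on all arrays. The SD of 0.44 for the 2 transporters was smaller than the median of 0.93 over all 13041 pairs of the 162 genes, and smaller than the lower quartile of 0.60. Slc2a1 nevertheless was only the 36th of 161 genes in the constancy of its ratio to Slc2a4, and Slc2a4 the 34th in its ratio to Slc2a1. Insr is given no place here, because 2 of its values were under the bound. The 2 transporters thus had a more constant ratio to many other genes than to each other.

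The gene most like Slc2a1 among those above the noise bound on all arrays was Igfbp4, which encodes a binding protein of insulin-like growth factors. The Igfbp4 intensities on replicates 1 to 6 were 0.0468, 0.0089, 0.0122, 0.0079, 0.0108 and 0.0046. Each of these was somewhat below the Slc2a1 value of the same array, and their ratio to Slc2a1 stayed between 0.723 and 0.919, a range of 1.27-fold. Igfbp4 remained among the 3 genes most like Slc2a1 under 8 of 8 alternatives. Fabp3, a fatty acid carrier of muscle, followed with a range of 1.56-fold, and Des, the intermediate filament of muscle fibres, with 1.77-fold. Fabp3 kept its place under 5 of 8 alternatives and Des under 1 of 8.

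The genes most like Slc2a4 were Dgat1, Aldoa and Agt, and none held its place firmly. Aldoa, the muscle aldolase of glycolysis, had intensities of 14.8, 2.63, 5.30, 4.17, 2.73 and 1.48 on replicates 1 to 6. In these units replicate 1 was the highest, replicate 3 the next and replicate 6 the lowest. That order held for Slc2a4, but also for Slc2a1 and for the summed intensity of the arrays. Relative to the array median Aldoa and Slc2a4 were both highest on replicate 3, but Aldoa was lowest on replicate 6 and Slc2a4 on replicate 2. The ratio of Aldoa to Slc2a4 ranged 1.51-fold. Dgat1, an enzyme of triglyceride synthesis, ranged 1.45-fold relative to Slc2a4, and Agt, the angiotensin precursor, 1.43-fold. Each of the 3 remained among the nearest under 4 of 8 alternatives.

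For Insr the same rule, with the values under the bound taken as deposited, named Lama5, a laminin chain of basement membranes, Scarb2, a lysosomal membrane protein, and Ttn, the giant elastic protein of the sarcomere. On the 4 arrays above the bound their ratios to Insr ranged 1.35-fold, 1.33-fold and 1.18-fold. Over those arrays alone Ttn was the 5th, Scarb2 the 10th and Lama5 the 15th of 161 genes in constancy, and Slc2a1 was the 11th. With Insr set to its bound on replicates 1 and 5 the places were 8, 2 and 1 for Ttn, Scarb2 and Lama5. The order of genes near Insr was therefore not settled by these data.

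Glucose taken up by the transporters enters glycolysis. Of the 19 genes of the glycolysis and glycogen list 6 were measured, and 6 of 6 exceeded the noise bound on all arrays. Their median ratio SD to Slc2a4 was 0.36, against 0.69 over all 161 genes, and 5 of the 6 were below that median. Besides Aldoa, the ratio to Slc2a4 ranged 1.55-fold for Gapdh, 1.63-fold for Pgk1 and 2.38-fold for Ldhb, the lactate dehydrogenase subunit typical of oxidative muscle. Hk1, the hexokinase that traps glucose after entry, ranged 3.71-fold. Ldha, the subunit typical of glycolytic muscle, ranged 7.28-fold and was the one member above the median. Relative to Slc2a1 the list's median ratio SD was 0.43, against 0.63 over all genes, and 5 of 6 were below that median too. With 4 more measured genes of the pathway, Eno2, Aldoc, Ldhc and Pfkfb2, which were added after their values were seen, 7 of 10 were below the median for Slc2a4 and 6 of 10 for Slc2a1. Of the muscle fibre markers 9 of 9 were below the median for each transporter, with median ratio SDs of 0.48 for Slc2a4 and 0.45 for Slc2a1, so a constant ratio to the transporters was not particular to glycolysis genes. Relative to Insr, set to its bound where under it, 5 of the 6 glycolysis genes and 8 of the 9 fibre markers were below the median. These medians include genes not above the noise bound on all arrays. Over the 122 other genes above it, the median was lower, 0.557 for Slc2a1 and 0.576 for Slc2a4. Against it Ttn (0.560) was no longer below for Slc2a1, nor were Hk1 (0.668) and Aldoc (0.635) for Slc2a4.

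Beyond the receptor, 3 of the 12 genes of the insulin and IGF signal list were measured. Igf1r, the IGF receptor and a close relative of Insr, exceeded the noise bound on 3 of 6 arrays, with intensities from 0.0008 to 0.0031. On the 4 arrays above the bound of Insr the growth factor gene Igf1 ranged 2.55-fold relative to Insr and Igf2 7.15-fold. With Insr set to its bound on the other arrays these ranges were 7.49-fold and 12.1-fold. Of the 3 genes, 0 had a ratio SD below the median over all genes, for Slc2a1, for Slc2a4 or for Insr set to its bound. The Igf1r values that did not exceed the bound entered as deposited, so its ratio SDs are uncertain.

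Of 13 known regulators of the transporter genes 7 were measured, each above the noise bound on all arrays. The MEF2 factors bind the Slc2a4 promoter in muscle. Mef2a ranged 2.11-fold relative to Slc2a4 (ratio SD 0.37) and Mef2c 2.58-fold (0.45). Myod1, a myogenic factor, ranged 13.5-fold and Pparg, a regulator of fat cells, 24.7-fold. For Hif1a, the hypoxia factor that drives Slc2a1 in many cells, the ratio to Slc2a1 ranged 3.04-fold (ratio SD 0.64). In all 3 of 7 were below the median over all genes for each transporter and for Insr set to its bound, with list medians of 0.70 against 0.69 for Slc2a4 and 0.64 against 0.63 for Slc2a1. Against the median of 0.576 for Slc2a4 over genes above the noise bound, Ppara (0.670) was no longer below.

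**Figure D3:**
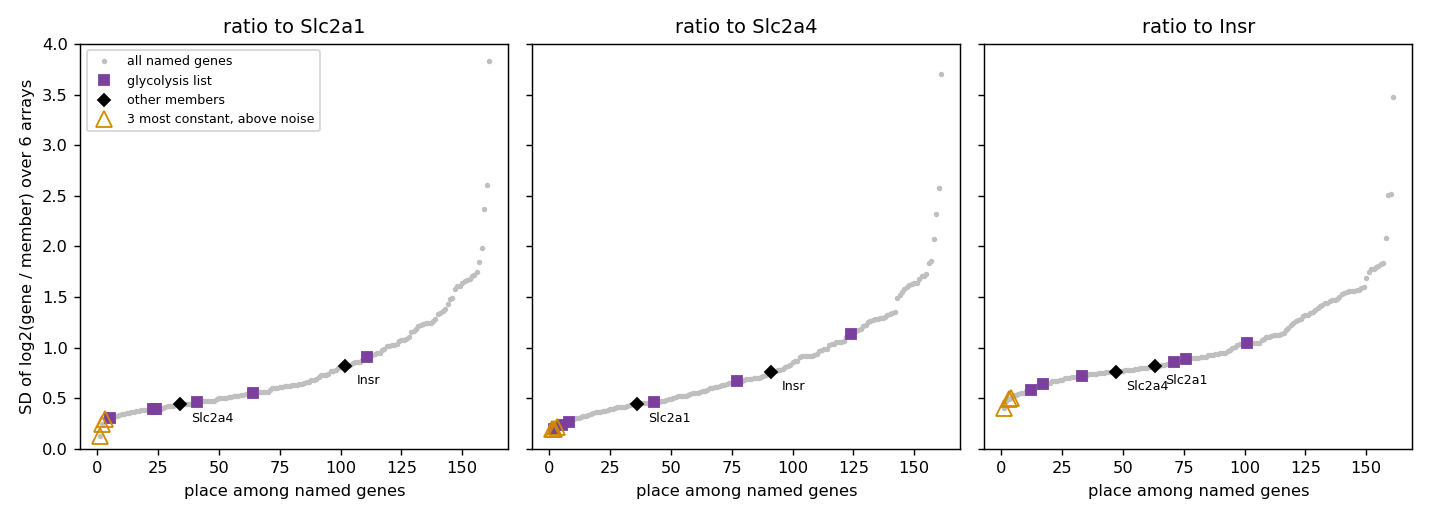
Genes ordered by how constant their ratio to Slc2a1, Slc2a4 or Insr was over the 6 arrays (x axis, place among named genes; y axis, SD of the log2 ratio, low values being constant). Grey points are all 161 other genes, squares the 6 glycolysis genes, diamonds the other members and open triangles the 3 most constant genes above noise; Slc2a1 lies 36th for Slc2a4 while Aldoa, a square, is among the 3 most constant for Slc2a4, and since the Insr values under the noise bound enter as deposited, places involving Insr are not settled.

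The array also carried 2 other glucose transporter genes, which are given here although chosen after their values were seen. Slc2a2 encodes GLUT2, known from liver and the insulin-secreting cells, and Slc2a3 encodes GLUT3, known from neurons. Both exceeded the noise bound on 6 of 6 arrays. For Slc2a2 the intensities on replicates 1 to 6 were 0.1189, 0.0262, 0.0194, 0.0191, 0.0212 and 0.0054, and for Slc2a3 they were 0.0266, 0.0055, 0.0072, 0.0072, 0.0098 and 0.0099. Slc2a2 was lowest on replicate 6, while relative to the array median Slc2a3 was highest there. The ratio of Slc2a4 to Slc2a2 was lowest on replicate 2, at 1.21, and highest on replicate 6, at 4.13. The ratio of Slc2a4 to Slc2a3 was lowest on replicate 6, at 2.25, and highest on replicate 3, at 10.9. Replicate 2 thus held the lowest ratio of Slc2a4 to Slc2a1 and to Slc2a2. The range between samples was 3.42-fold for Slc2a4 over Slc2a2 and 4.82-fold for Slc2a4 over Slc2a3. Without replicate 6 these were 3.34-fold and 2.14-fold, so the wide range over Slc2a3 rested on that array, and the range of Slc2a4 over Slc2a1 was 2.31-fold with or without it. The ratio of Slc2a1 to Slc2a2 was 0.42 to 1.00, so the Slc2a2 probe was at least as bright as the Slc2a1 probe on every array. Which transcripts the probes detect besides their own was not tested.

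The Slc2a4 product belongs to muscle fibres, and Slc2a1 is also expressed in endothelium, so markers of both were set beside the ratio of the transporters. Of 11 fibre markers 9 were measured, and their summed intensity was 223.2 to 578.3 times the array median (lowest on replicate 6, highest on replicate 1). Muscle fibre markers thus gave a signal on every array, but their sum does not tell soleus from other muscles. Of 8 endothelial markers 6 were measured, with a sum of 7.28 to 14.3 times the array median, lowest on replicate 1 and highest on replicate 5. Among these Nos3, the endothelial nitric oxide synthase, exceeded the noise bound on 2 of 6 arrays, and the other 5 on all 6. The ratio of the fibre sum to the endothelial sum on replicates 1 to 6 was 79.5, 45.8, 56.2, 41.9, 20.1 and 20.6. From highest to lowest these values ran over replicates 1, 3, 2, 4, 6 and 5. The ratio of Slc2a4 to Slc2a1 ran over replicates 4, 3, 6, 5, 1 and 2. Of 5 fat cell markers 2 were measured, Pparg and Fabp4, with a sum of 4.36 to 7.53 times the array median. The one measured gene of 6 blood and myeloid markers, Il1b, was above 0 on 0 of 6 arrays, and 0 of 4 nerve markers were measured. The part of cell composition in the transporter ratio was not tested.

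**Figure D4:**
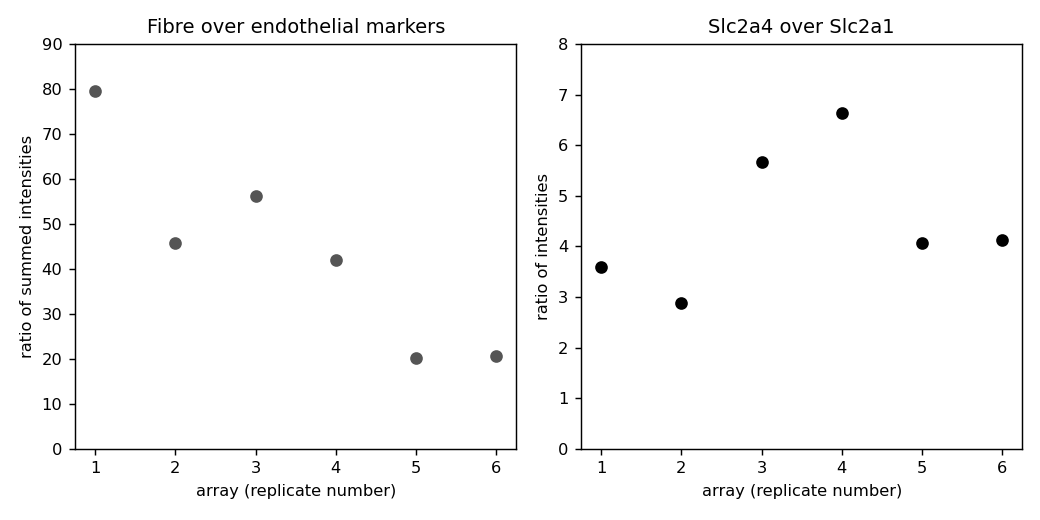
Ratio of the summed intensities of 9 fibre and 6 endothelial markers (left) and ratio of Slc2a4 to Slc2a1 (right) on each array (x axis, replicate number), both on linear axes from 0. Each point is 1 array; the left values are highest on replicate 1, at 79.5, and the right values on replicate 4, at 6.64.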

How the data were processed

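The deposited table gave 1 intensity per probe and array. The authors' scanner, background method and normalization are not given in the sources used here; values below 0 show that the deposited intensities had some background subtracted. Of the 223 probes 205 had 1 gene in the platform annotation and 18 were unnamed. For a gene with 2 probes the brighter one stood for it. Log2 values were taken without a pseudocount and centred on the median of probes above 0 on all arrays. Correlations used exact two-sided permutation tests over 720 pairings, adjusted over 3 pairs by Benjamini and Hochberg. Python 3.11.15, numpy 2.4.6, pandas 2.3.3 and scipy 1.17.1 were used. The text names the 3 members, the 3 genes above the noise bound with the most constant ratio to each, and measured genes of the lists. The genes and lists were chosen with earlier results of these data known. The ranking by ratio was tested on simulated data of 162 genes: 3 genes planted within 0.1 log2 units (SD) of a gene were recovered in 98.7% of cases. Looser likeness was not simulated. The genes named as most like the members all had looser ratios, with SDs from 0.125 (Igfbp4 to Slc2a1) to 0.500 (Ttn to Insr as deposited). Recovery at these distances was not tested, so the 98.7% does not apply to the named genes. With 1 group no comparison between conditions was possible, and the number of arrays limits precision. Alternatives were other scalings, background allowances, a stricter filter for centring and arrays left out. For the genes most like each member the 8 alternatives were narrower. They were quantile normalization, a looser pool of all genes above 0 on all arrays, and each array left out in turn.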

Additional observations from a re-analysis of the deposited data

How the results depend on the processing

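The mean log2 ratios among the 3 genes moved by less than 1 SD under every alternative run for them (quantile normalization, both background settings and arrays left out). With the noise bound added to both probes, however, the mean log2 ratio of Slc2a4 over Insr was 3.07 in place of 3.77 and that of Slc2a1 over Insr 1.15 in place of 1.66. The log2 range of Slc2a1 between samples, 0.92 under median centring, was 2.49 relative to 28S and 3.58 in deposited units. That of Slc2a4, 1.27, was 2.30 and 3.38. With 1 array left out in turn it was 0.76 to 0.92 for Slc2a1, 0.77 to 1.27 for Slc2a4 and 1.40 to 2.01 for Insr, whose values under the bound enter as deposited. The correlation of Slc2a4 and Slc2a1 passed the threshold after scaling to 28S (r = 0.89) and in deposited units (r = 0.93), but under no other alternative run. It was 0.27 to 0.73 with 1 array left out. That of Slc2a1 and Insr was -0.027 when centred on probes above the noise bound and -0.35 to 0.29 with 1 array left out, and that of Slc2a4 and Insr -0.36 to 0.63. Of the 3 genes most like each member, 1 was shared after quantile normalization for Slc2a1 and 1 for Slc2a4. With 1 array left out 1 to 2 were shared for Slc2a1, 0 to 3 for Slc2a4 and 1 to 3 for Insr. Leaving out replicates 1 and 6 together, Insr bounded or on 4 arrays in levels and rankings, the longer glycolysis list, noise ranges of the ratios and the ratios to Slc2a2 and Slc2a3 were chosen after seeing the data. No paired analysis was possible because there was a single group. Of 6 sets of 6 values, 3 levels and 3 ratios, 0 held a sample far from the others by Dixon's criterion. Signal over background limits Insr most. The causes of these shifts were not tested.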
